A study of Bos taurus with 33 samples.

Results

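The 7 genes examined are those of lipid uptake and handling, followed across 33 endometrial arrays: LPL and CD36 (uptake at the cell surface), FABP3, FABP4 and FABP5 (intracellular fatty acid carriers), PLIN2 (lipid droplet coat) and GPLD1 (a phospholipase that releases glycosylphosphatidylinositol-anchored proteins). The genes were listed by function, with earlier results of these data known. Counts of called genes set beside the share of all probe sets are therefore descriptions, not tests of the set. Every probe set with one of the 7 genes as its only gene symbol in the array annotation was kept. This gave 9 of 24016 probe sets and 7 of 9155 genes, with 2 probe sets each for FABP4 and FABP5 and 1 for each other gene. The NCBI gene identifiers are 280843 for LPL, 281052 for CD36, 281758 for FABP3, 281759 for FABP4, 281760 for FABP5, 280981 for PLIN2 and 287025 for GPLD1. No probe set of the 7 genes was filtered out, and the first probe set of FABP4 and of FABP5, the one with the higher mean over all arrays, stands for its gene.

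The samples were Bavarian Simmental heifers whose cycles were synchronised with 500 µg of cloprostenol, with 1 Affymetrix bovine genome array per animal. In the first experiment a lipid extrudate releasing human interferon alpha (IFNA, 3 heifers), the same lipid extrudate without interferon (placebo, 3 heifers) or phosphate-buffered saline (PBS, 3 heifers) was placed on day 14 of the cycle in the uterine horn on the side of the corpus luteum. About 6 biopsies per animal were taken from that horn on day 16, after a flush. In the second experiment heifers inseminated with sperm of 1 bull and found pregnant were compared with cyclic heifers given sperm-free supernatant, and intercaruncular endometrium was taken at slaughter on day 12 (5 pregnant and 5 cyclic), day 15 (3 and 3) or day 18 (4 and 4). The biopsies and the day 18 tissue came from the caudal, the day 12 tissue from the distal and the day 15 tissue from the medial part of the horn.

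Lipoprotein lipase (LPL) frees fatty acids from circulating triacylglycerol at the wall of blood vessels, and CD36 is one of the membrane proteins that bring fatty acids into cells. Inside the cell, fatty acid binding proteins carry them to membranes, mitochondria and the nucleus, and perilipin 2 (PLIN2) coats the droplets in which neutral lipid is stored. Ruminant endometrium supplies lipids to the free-living conceptus before attachment, during which time the conceptus secretes interferon tau, a type I interferon that acts through the same receptor as IFNA.

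Values are log2 expression levels as deposited, so a difference of 1 is a doubling, and a difference is called where its p-value from limma, adjusted over all 24016 probe sets by the Benjamini-Hochberg method, is below 0.05. Biopsy arrays had a median level of 6.64 on average, and the arrays of days 12, 15 and 18 had medians of 6.86, 6.50 and 7.25, so that these 4 sets appear to have been normalised separately. Levels are therefore compared between days only after the median of each array is subtracted, and day, sampled part of the horn and array set cannot be told apart. Replicates of a group correlated at 0.977 to 0.994 over all probe sets. The 3' minus 5' difference of the GAPDH control probe sets, a measure of RNA integrity, ranged from 1.03 to 3.87 in the biopsies and from -0.16 to 0.56 in the slaughter tissue. Within the slaughter tissue it was 0.22 to 0.56 on day 12, -0.16 to -0.04 on day 15 and -0.10 to 0.14 on day 18. Day 12 did not overlap with the later days. A between-day fit from day 12 with this difference as a covariate therefore cannot tell day and RNA integrity apart. Epithelium and stroma were looked for with EPCAM and KRT18 (epithelium) and VIM, DCN and COL1A1 (stroma), whose median levels lay 3.54 to 6.81 above the array median. The epithelial KRT8 (-2.02) and the uterine hormone receptors PGR (-2.46) and ESR1 (-1.90) lay below it. These markers do not by themselves identify the tissue as endometrium.

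**Figure D1:**
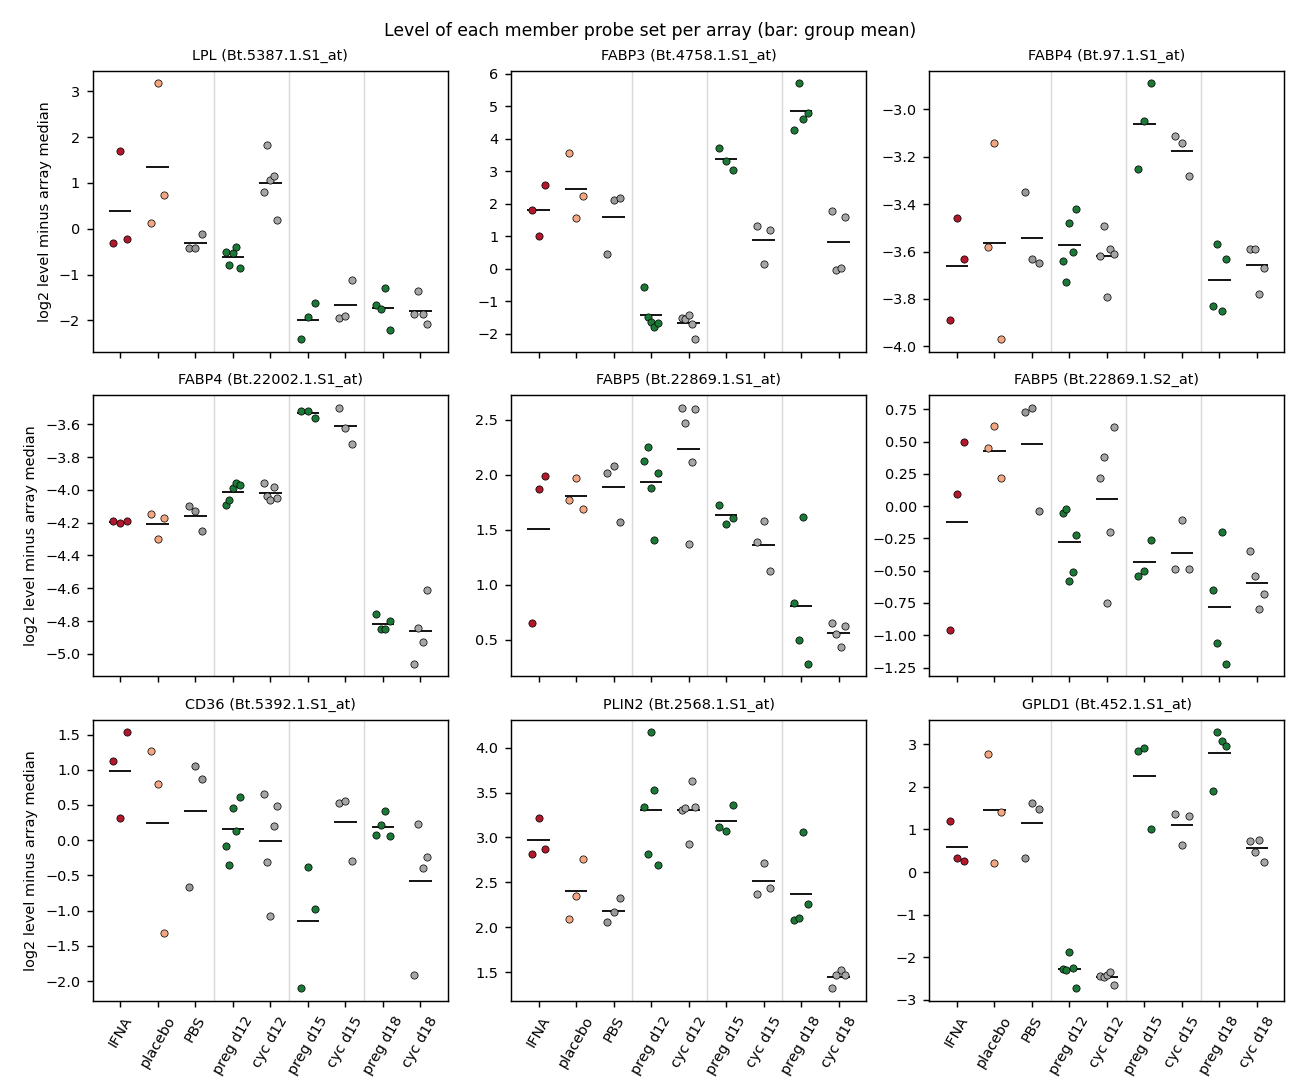
Level of each of the 9 probe sets (log2 level minus the array median, vertical axis, scaled separately in each panel) on each array, by group; points are animals, black bars are group means, and grey lines separate the array sets. FABP3 is highest in the pregnant animals of day 18 (centred 4.27 to 5.71), LPL in cyclic animals of day 12 lies above all pregnant animals of that day, and both FABP4 probe sets stay at least 2.89 below the array median.

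On day 18 FABP3, GPLD1 and PLIN2 were higher in pregnant than in cyclic endometrium, whereas LPL was called lower on day 12 and on neither later day, and none of the 7 genes passed the test after IFNA. Pregnant animals of day 18 had 16.0-fold more FABP3 signal, 4.74-fold more GPLD1 and 1.89-fold more PLIN2 than cyclic animals. That made 3 of 7 genes called, all higher, against 19.0% of all probe sets called on that day, of which 8.84% were higher. On day 15 FABP3 was called, 5.58-fold higher, which is 1 of 7 genes against 5.07% of probe sets called and 2.75% called higher. On day 12 LPL was called, 3.08-fold lower, and it was the only probe set of the array to pass (0.00416%).

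**Figure D2:**
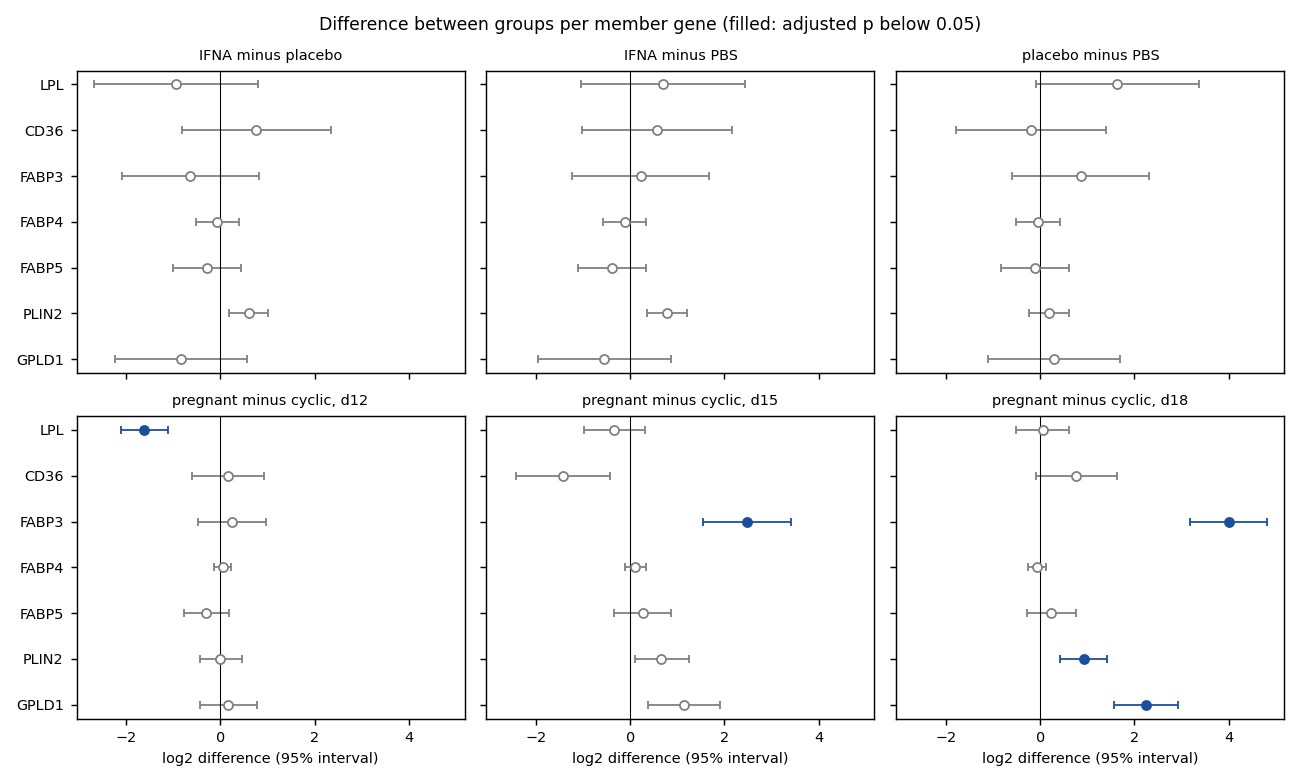
Log2 difference for each gene in 6 comparisons (first-named group minus second), with 95% intervals from limma; filled points have an adjusted p below 0.05. LPL on day 12 (-1.62), FABP3 on days 15 and 18 (2.48 and 4.00), and PLIN2 and GPLD1 on day 18 (0.92 and 2.25) are filled, and no point is filled in the 3 biopsy comparisons.

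LPL, the lipase, had levels of 6.35, 6.06, 6.32, 6.46 and 6.00 in the 5 pregnant heifers of day 12, against 7.65, 8.68, 7.90, 8.03 and 7.05 in the 5 cyclic heifers. Every pregnant animal lay below every cyclic one, as for 0.579% of all probe sets, and the pregnant animals were close together (SD 0.20) while the cyclic ones were spread (SD 0.59). The difference was -1.62 ± 0.241 (SE, limma, adjusted p = 0.0241), with a 95% interval of -2.12 to -1.12. The call ended without pregnant replicate 1, 2, 4 or 5 or cyclic replicate 3, where the difference stayed between -1.68 and -1.56 and the adjusted p was 0.0543 to 0.133, and in a fit on the day 12 arrays alone (adjusted p = 0.208). The endothelial marker list, for the cells at whose surface LPL acts, had a mean level of 1.04 to 1.43 above the array median in pregnant and 1.05 to 1.51 in cyclic animals of day 12, and 0 of its 12 measured genes were called. The macrophage list lay at 0.16 to 0.41 in pregnant and 0.20 to 0.81 in cyclic animals, with 0 of 9 genes called. Epithelial markers were at 2.27 to 2.50 and 2.40 to 2.52, and stromal markers at 4.55 to 5.03 and 4.67 to 4.99, in pregnant and cyclic animals. Muscle markers were at 1.73 to 2.72 and 1.77 to 2.76, and adipocyte markers at -1.42 to -1.08 and -1.35 to -1.27. Which cells held the LPL RNA was not tested. In whole tissue, fewer cells of a type and less RNA per cell cannot be told apart.

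On day 15 LPL was at 4.07, 4.57 and 4.89 in pregnant heifers, against 4.57, 4.60 and 5.38 in cyclic heifers. These ranges overlapped, and the difference of -0.34 ± 0.311 was not called (limma, adjusted p = 0.642). On day 18 the levels were 5.58, 5.52, 5.94 and 5.01 in pregnant and 5.40, 5.90, 5.38 and 5.17 in cyclic heifers, again overlapping, with a difference of 0.05 ± 0.269 and an interval of -0.51 to 0.61. The pregnancy effect on LPL is the difference between pregnant and cyclic animals of a day. It went from -1.62 on day 12 to 0.05 on day 18, a change of 1.67 ± 0.361 (limma interaction, adjusted p = 0.00441). For day 15 against day 12 the change of 1.28 ± 0.393 missed the threshold (adjusted p = 0.0999) and passed it without cyclic replicate 5 of day 12 (1.49, adjusted p = 0.0339).

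LPL also moved with day. In pregnant animals its centred level was -0.62 ± 0.20 on day 12, -1.98 ± 0.40 on day 15 and -1.73 ± 0.38 on day 18 (SD, n = 5, 3 and 4), a fall of -1.37 ± 0.28 for day 15 against day 12 (SE, limma, adjusted p = 0.000256). In cyclic animals it was at 1.01 ± 0.60, -1.65 ± 0.47 and -1.79 ± 0.31 on the same days, a fall of -2.66 ± 0.28 for day 15 against day 12 (adjusted p = 9.61e-08). Between days 15 and 18 LPL was not called in either state, at 0.25 ± 0.292 in pregnant and -0.14 ± 0.292 in cyclic animals, although the deposited levels gave 1.00 in pregnant animals (adjusted p = 0.00327). With the GAPDH 3' minus 5' difference as a covariate the fall from day 12 to day 15 was -0.80 and no longer called in pregnant animals (adjusted p = 0.362), and -2.19 and called in cyclic animals (adjusted p = 0.00426). The covariate did not overlap between these days, so a call lost with it does not tell day from RNA integrity. Ordered by centred mean over the 9 groups, LPL was highest in placebo and lowest in pregnant animals of day 15. The top place rests on placebo replicate 2 (3.17); the other placebo animals were at 0.13 and 0.74, and the placebo median of 0.74 lay below the median of 1.06 in cyclic animals of day 12. Of neighbouring groups in that order pregnant day 12 and cyclic day 15 alone did not overlap.

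CD36, the fatty acid translocase, passed the test in no comparison of pregnant with cyclic animals. On day 15 its levels were 4.38, 6.12 and 5.53 in pregnant heifers and 7.04, 7.07 and 6.19 in cyclic heifers. The pregnant animals all lay below the cyclic ones, with the nearest pair 6.12 and 6.19. The difference was -1.42 ± 0.479 (limma, adjusted p = 0.0908), with an interval of -2.42 to -0.43, and without pregnant replicate 2 it was -1.81 and passed (adjusted p = 0.0466). Non-overlap in the lower direction held for 12.7% of all probe sets on that day.

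By day 18 CD36 was at 7.31, 7.48, 7.65 and 7.29 in pregnant heifers, against 5.35, 7.48, 6.85 and 7.02 in cyclic heifers, a difference of 0.76 ± 0.414 (limma, adjusted p = 0.225). The pregnant animals were alike, and cyclic replicate 1 lay well below the rest. On day 12 the difference was 0.16 ± 0.371. Between days 15 and 18 the pregnancy effect on CD36 differed by 2.18 ± 0.633 (adjusted p = 0.197), which was not called. Within pregnant animals, centred CD36 fell by 1.30 for day 15 against day 12 (adjusted p = 0.0118) and rose by 1.34 for day 18 against day 15 (adjusted p = 0.0154). Both calls ended without pregnant replicate 1 of day 15 (-0.83, adjusted p = 0.126, and 0.86, adjusted p = 0.136), and the first also with the GAPDH covariate (-1.50, adjusted p = 0.266).

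FABP3, the heart-type fatty acid binding protein, had the largest difference between pregnant and cyclic animals of the 7 genes on days 15 and 18. On day 18 it was at 11.51, 12.98, 11.85 and 12.04 in pregnant heifers, against 9.03, 7.23, 7.27 and 8.85 in cyclic heifers. The lowest pregnant animal lay well above the highest cyclic one; 9.24% of probe sets showed non-overlap in the higher direction on that day. The difference was 4.00 ± 0.388 (limma, adjusted p = 1.34e-07), with an interval of 3.19 to 4.81. On day 15 FABP3 was at 10.21, 9.82 and 9.56 in pregnant and 7.82, 6.65 and 7.68 in cyclic heifers, again without overlap, a difference of 2.48 ± 0.449 (adjusted p = 0.00156).

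On day 12 FABP3 was at 6.31, 5.39, 5.22, 5.06 and 5.19 in pregnant heifers, against 5.33, 5.32, 5.41, 5.17 and 4.71 in cyclic heifers. The ranges overlapped, pregnant replicate 1 stood above the other 9 animals, and the difference was 0.25 ± 0.347 (limma, adjusted p = 0.957). The pregnancy effect on FABP3 was 3.75 ± 0.521 larger on day 18 than on day 12 (limma interaction, adjusted p = 4.57e-05). From day 12 to day 15 it grew by 2.23 ± 0.567 (adjusted p = 0.0416), which made 1 of 7 genes, against 1.99% of probe sets called for that term and 1.37% called positive. This second call was lost when any 1 of 13 of the 16 animals of these days was left out, the exceptions being pregnant replicate 1 and cyclic replicate 5 of day 12 and cyclic replicate 1 of day 15 (FABP3 then 1.87 to 2.45, adjusted p 0.0208 to 0.15 over the 16). From day 15 to day 18 the growth of 1.52 ± 0.593 was not called (adjusted p = 0.394). For that step limma called 0 of 7 genes, against 0.208% of probe sets, and 3 of 9 probe sets (FABP3, CD36 and GPLD1) had an unadjusted p below 0.05, against 9.27%.

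After day 12 FABP3 rose in both states. Its centred level was -1.42 ± 0.50, 3.37 ± 0.34 and 4.85 ± 0.61 in pregnant animals of days 12, 15 and 18, and -1.67 ± 0.29, 0.88 ± 0.64 and 0.84 ± 0.97 in cyclic animals (SD). For day 18 against day 12 this was a rise of 6.27 ± 0.368, or 77.4-fold, in pregnant animals (SE, limma, adjusted p = 1.11e-11) and of 2.51 ± 0.368, or 5.69-fold, in cyclic animals. In pregnant animals FABP3 rose further for day 18 against day 15 (1.48 ± 0.419, adjusted p = 0.00522), while in cyclic animals that difference was -0.04 ± 0.419. In the order of the 9 groups, pregnant day 18 did not overlap with pregnant day 15, and cyclic day 18 did not overlap with pregnant day 12; the other neighbours overlapped.

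**Figure D3:**
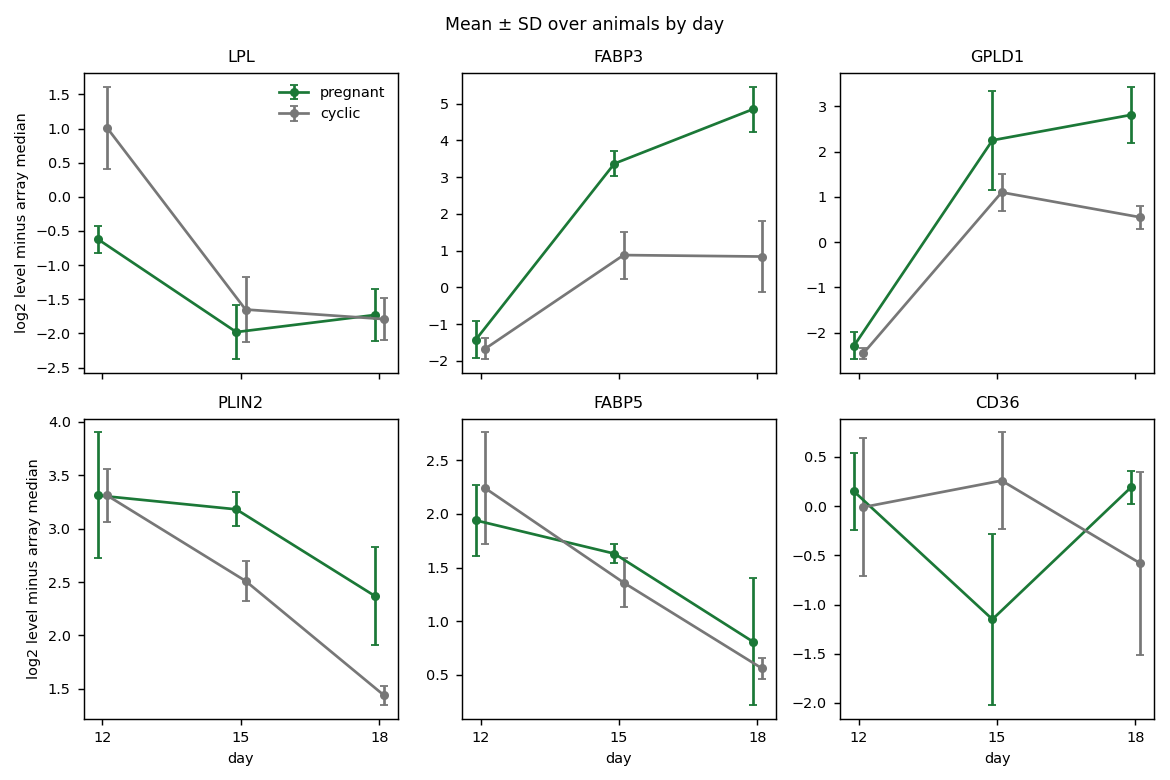
Mean ± SD over animals of 6 genes on days 12, 15 and 18 in pregnant (green) and cyclic (grey) heifers, as log2 level minus the array median (n = 5, 3 and 4 animals per state); the panels have their own vertical scales, and days also differ in sampled part of the horn and array set. The lines of FABP3 and GPLD1 lie together on day 12 and apart by day 18 (4.85 and 0.84 for FABP3, 2.81 and 0.55 for GPLD1), while those of LPL are apart on day 12 (-0.62 and 1.01) and together by day 18.

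FABP4, the adipocyte-type carrier, was near the low end of the array everywhere. Its 2 probe sets ran from 2.20 to 3.70 on all 33 arrays, where the lowest value of the table was 1.89, and only 1.12% and 6.83% of probe sets had a lower mean. The file has no detection calls, so whether FABP4 was above background is not known. The adipocyte markers ADIPOQ and LEP were at most -2.33 and -2.06 relative to the array median on any array. FABP4 differences between pregnant and cyclic animals were 0.05, 0.10 and -0.07 on days 12, 15 and 18, and those after IFNA were -0.07 against placebo and -0.12 against PBS, none called by limma.

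FABP4 was called between days, and the direction at its first probe set depended on the scale. For day 18 against day 15 the centred difference of that probe set was -0.66 in pregnant and -0.48 in cyclic animals (limma, adjusted p = 6.39e-06 and 0.000262), whereas the deposited levels gave 0.09 and 0.27. Under quantile normalisation these were -0.11 and 0.05. The rises for day 15 against day 12, 0.51 in pregnant and 0.44 in cyclic animals, were 0.15 and 0.09 on deposited levels and were then not called. The second FABP4 probe set was lower on day 18 on both scales. Its centred difference against day 15 was -1.28 in pregnant and -1.25 in cyclic animals (limma, adjusted p = 4.28e-11 and 6.86e-11), and its mean deposited level was 2.84, 2.96 and 2.43 in pregnant and 2.84, 2.89 and 2.40 in cyclic animals of days 12, 15 and 18.

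FABP5, the epidermal-type carrier, lies beside FABP4 in cattle: the RefSeq annotation places 2 protein-coding genes, PMP2 and FABP9, both of the same family, between them. FABP5 was measured above the array median at its first probe set, with 8.07, 7.77, 8.85 and 7.51 in pregnant heifers of day 18 and 7.91, 7.80, 7.68 and 7.87 in cyclic heifers. These ranges overlapped, and the difference of 0.23 ± 0.255 was not called (limma, adjusted p = 0.594). The second probe set gave -0.20 ± 0.236, so the sign of the difference differed between the probe sets. On days 12 and 15 the first probe set gave -0.30 ± 0.228 and 0.26 ± 0.294.

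Over the days FABP5 declined on the centred scale. Its first probe set was at 1.94, 1.63 and 0.81 in pregnant animals of days 12, 15 and 18 and at 2.24, 1.36 and 0.56 in cyclic animals. For day 18 against day 12 it fell by 1.13 in pregnant animals (limma, adjusted p = 0.000345) and by 1.67 in cyclic animals (adjusted p = 5.27e-06). The second probe set gave -0.51 (adjusted p = 0.052) and -0.64 (adjusted p = 0.0173). For day 18 against day 15 the first probe set gave -0.82 in pregnant and -0.80 in cyclic animals when centred (adjusted p = 0.0155 and 0.019), but -0.07 and -0.05, not called, on deposited levels. The mean deposited level of the second probe set was 6.46 on day 18 and 6.06 on day 15 in pregnant animals, and 6.66 and 6.14 in cyclic animals. With the GAPDH difference as a covariate the FABP5 fall in pregnant animals for day 18 against day 12 was -0.59 and not called (limma, adjusted p = 0.377). In cyclic animals the fall for day 15 against day 12 (-0.87, adjusted p = 0.00714) was also not called with that covariate (adjusted p = 0.649).

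PLIN2, the droplet coat protein, had levels of 9.32, 9.37, 10.29 and 9.49 in pregnant heifers of day 18, against 8.58, 8.72, 8.77 and 8.72 in cyclic heifers. All pregnant animals lay above all cyclic ones, pregnant replicate 3 was the highest, and the cyclic animals varied little (SD 0.08). The difference was 0.92 ± 0.241 (limma, adjusted p = 0.00944), and with single animals left out it was 0.70 to 1.02 and still called. On day 15 PLIN2 was at 9.60, 9.57 and 9.86 in pregnant and 8.88, 9.23 and 8.93 in cyclic heifers, without overlap, but the difference of 0.66 ± 0.278 was not called (adjusted p = 0.187), and 9.91% of all probe sets showed such non-overlap. On day 12 the levels ranged from 9.55 to 11.02 in pregnant and from 9.77 to 10.50 in cyclic animals, with means 10.17 and 10.16.

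Between days 12 and 18 the pregnancy effect on PLIN2 grew by 0.92 ± 0.323 (limma interaction, adjusted p = 0.076), which was not called and passed without pregnant replicate 3 of day 12 (1.13, adjusted p = 0.0115). On the centred scale PLIN2 was at 3.31, 3.18 and 2.37 in pregnant animals of days 12, 15 and 18, and fell by 0.94 for day 18 against day 12 (limma, adjusted p = 0.00129), a call that ended with the GAPDH covariate (-1.17, adjusted p = 0.0685). In cyclic animals it was at 3.31, 2.51 and 1.44 and fell by 1.86 (adjusted p = 7.15e-07). PLIN2 was higher in pregnant than in cyclic animals of day 18 while lower than on day 12 in both. The step from day 15 to day 18 was -0.81 in pregnant and -1.07 in cyclic animals on the centred scale (adjusted p = 0.0129 and 0.00181), and -0.06 and -0.32, not called, on deposited levels. In pregnant animals it was -0.72 and not called without replicate 3 of day 15 (adjusted p = 0.0556).

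GPLD1 cleaves the lipid anchor of glycosylphosphatidylinositol-anchored proteins and circulates in plasma with lipoproteins. Its levels on day 18 were 9.14, 10.55, 10.31 and 10.20 in pregnant heifers, against 7.99, 7.73, 8.01 and 7.49 in cyclic heifers. The groups did not overlap, and pregnant replicate 1 was the nearest to the cyclic animals. The difference was 2.25 ± 0.323 (limma, adjusted p = 3.56e-05). On day 15 GPLD1 was at 9.33, 9.41 and 7.50 in pregnant and 7.87, 7.14 and 7.81 in cyclic heifers.

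On that day 2 of 3 pregnant animals lay above all cyclic ones and the third lay within their range, and the GPLD1 difference of 1.14 ± 0.373 was not called (limma, adjusted p = 0.0816). Without pregnant replicate 3 it was 1.76 and called (adjusted p = 0.00103). On day 12 GPLD1 ranged from 4.13 to 4.96 in pregnant and from 4.21 to 4.53 in cyclic animals, a difference of 0.17 ± 0.289. The pregnancy effect was 2.07 ± 0.433 larger on day 18 than on day 12 (limma interaction, adjusted p = 0.00343). With FABP3 and LPL, 3 of 7 genes were called for this term, all positive, against 10.2% of probe sets called and 5.42% called positive. The positive term of LPL was the loss of a negative difference, from -1.62 on day 12 to 0.05 on day 18.

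Like FABP3, GPLD1 was low on day 12 in both states. Its centred level was -2.29, 2.25 and 2.81 in pregnant and -2.46, 1.10 and 0.55 in cyclic animals of days 12, 15 and 18. For day 15 against day 12 it rose by 4.54 ± 0.334 in pregnant animals (limma, adjusted p = 4.86e-10) and by 3.56 ± 0.334 in cyclic animals (adjusted p = 2.15e-08). The later step, day 18 against day 15, was 0.55 in pregnant and -0.55 in cyclic animals, neither called. In pregnant animals that step passed on deposited levels (1.30, adjusted p = 0.0017) and without replicate 1 of day 18 (0.86, adjusted p = 0.0377), and in cyclic animals in a fit on the 2 compared groups alone (adjusted p = 0.0482). Over these between-day comparisons 5 of 7 genes were called in pregnant animals for each pair of days, against 60.3% of probe sets for day 15 over 12, 52.2% for day 18 over 15 and 63.5% for day 18 over 12. In cyclic animals 6, 3 and 5 genes were called, against 58.6%, 49.5% and 57.3%. The counts are near the background, and the size of the rise for day 18 against day 12 in pregnant animals, 77.4-fold for FABP3 and 34.2-fold for GPLD1, is given as a description.

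In the biopsies, PLIN2 was at 9.48, 9.86 and 9.53 after IFNA, against 8.71, 8.96 and 9.40 after placebo and 8.69, 8.81 and 9.01 after PBS. Each IFNA animal lay above each placebo and PBS animal, which held in that direction for 5.38% and 6.09% of probe sets. The difference was 0.60 ± 0.187 over placebo (limma, adjusted p = 0.332, interval 0.18 to 1.02) and 0.79 ± 0.187 over PBS (adjusted p = 0.139, interval 0.36 to 1.21), neither called. With array weights, which give less weight to arrays that deviate more, PLIN2 passed over PBS (0.81, adjusted p = 0.0366). By limma 0 of 7 genes were called over placebo, against 0.866% of probe sets, and 0 of 7 over PBS, against 0.862%. At an unadjusted p below 0.05, 1 of 9 probe sets (PLIN2) passed in each, against 8.47% and 9.34% of all probe sets.

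FABP3, the gene that rose most in pregnancy, was at 8.47, 7.67 and 9.23 after IFNA, 10.20, 8.19 and 8.90 after placebo and 7.08, 8.76 and 8.88 after PBS. The 3 groups overlapped, with differences of -0.64 ± 0.64 over placebo (interval -2.09 to 0.81) and 0.22 ± 0.64 over PBS (interval -1.24 to 1.67). GPLD1 was at 7.87, 6.96 and 6.91 after IFNA, 9.39, 6.82 and 8.04 after placebo and 6.95, 8.27 and 8.16 after PBS. It overlapped likewise, with -0.84 ± 0.618 over placebo and -0.55 ± 0.618 over PBS, and placebo replicate 1 held the highest value of both genes. Without that animal the differences over placebo were -0.09 for FABP3 and -0.18 for GPLD1.

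The IFNA effect over placebo minus the pregnancy effect of day 18 was -4.64 ± 0.708 for FABP3 (limma interaction over all 33 arrays, adjusted p = 0.000882) and -3.08 ± 0.633 for GPLD1 (adjusted p = 0.0119). That is 2 of 7 genes, against 1.09% of probe sets called and 0.720% called in the lower direction. The GPLD1 call ended without placebo replicate 1 (-2.43, adjusted p = 0.0584). For PLIN2 the same term was -0.32 ± 0.35, with an interval of -1.04 to 0.40. Set against the pregnancy effect of day 15, 0 of 7 genes were called by limma (0.371% of probe sets), with FABP3 at -3.12 ± 0.757 (adjusted p = 0.0629). At an unadjusted p below 0.05, 3 of 9 probe sets passed for that term, against 12.9%. The FABP3 term of day 15 passed without IFNA replicate 3 (-3.51, adjusted p = 0.0366) or placebo replicate 2 (-3.57, adjusted p = 0.0186), and the GPLD1 term, -1.98, passed without placebo replicate 2 (-2.61, adjusted p = 0.0318). These terms cross array sets, sampling methods and RNA integrity, which cannot be told apart from the treatments.

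LPL and CD36 varied widely among the biopsies. LPL was at 6.34, 8.33 and 6.43 after IFNA, 6.76, 9.78 and 7.38 after placebo and 6.21, 6.21 and 6.58 after PBS. The PBS animals were close together (SD 0.21) and lay below all placebo animals, as for 2.80% of probe sets, while placebo replicate 2 was by far the highest. The difference between placebo and PBS was 1.64 ± 0.768 (limma, adjusted p = 0.999) and was 0.74 without placebo replicate 2. By limma 0 of 7 genes were called for placebo over PBS and 0 of 9 probe sets had an unadjusted p below 0.05, against 0 and 2.71% of all probe sets.

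After IFNA, LPL differed by -0.94 ± 0.768 from placebo, by -0.04 without placebo replicate 2, and by 0.70 ± 0.768 from PBS, or 0.05 without IFNA replicate 2, neither called by limma. CD36 was at 7.78, 6.95 and 8.19 after IFNA, 7.89, 7.41 and 5.33 after placebo and 5.96, 7.70 and 7.56 after PBS. Its groups overlapped, and the differences were 0.76 ± 0.699 over placebo and 0.57 ± 0.699 over PBS. Without placebo replicate 3 the first was -0.01, and without PBS replicate 1 the second was 0.01. FABP5 was at 7.31, 8.51 and 8.65 after IFNA, 8.39, 8.58 and 8.33 after placebo and 8.65, 8.72 and 8.26 after PBS, with IFNA replicate 1 low at both probe sets (7.31 and 5.70). GAPDH 3' minus 5' differences were 1.66, 2.49 and 2.98 after IFNA, 2.83, 3.87 and 1.03 after placebo and 3.30, 3.11 and 1.59 after PBS. With that difference as a covariate 0 of 7 genes were called in the 3 biopsy comparisons, with FABP3 at -0.68, GPLD1 at -0.91 and PLIN2 at 0.57 over placebo.

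Markers of other cells moved with some of these results. On day 18 the mean level of 9 measured macrophage and dendritic cell markers was 1.02 to 1.44 above the array median in pregnant animals and 0.14 to 0.31 in cyclic animals. Of the 9, 6 were called higher, against 8.84% of all probe sets, among them C1QB (1.68) and CD86 (1.18). The 12 endothelial markers were at 0.61 to 0.85 in pregnant and 0.89 to 1.44 in cyclic animals. Of these, 5 were called lower, where 19.0% of all probe sets were called in either direction. Trophoblast markers, which would show conceptus cells left on the tissue, were at -2.61 to -2.47 in pregnant and -2.65 to -2.47 in cyclic animals, with 0 of 6 called. On day 15 the macrophage list was at 0.77 to 0.86 and 0.30 to 0.77 and the endothelial list at 0.77 to 1.06 and 1.03 to 1.32 in pregnant and cyclic animals. In the biopsies the macrophage list was at 1.17 to 1.57 after IFNA and 0.06 to 0.69 after placebo, with 3 of 9 called higher, against 0.866% of all probe sets. Over PBS, where that list was at 0.45 to 0.68, 2 of 9 were called higher, against 0.862%. The endothelial list was at 0.54 to 1.07 after IFNA, 0.80 to 1.18 after placebo and 1.25 to 1.45 after PBS. Of its 12 genes 2 were called lower over PBS, PLVAP (-1.43) and PECAM1 (-1.01).

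Epithelial markers were at 2.67 to 2.72 in pregnant and 2.46 to 2.67 in cyclic animals of day 15, and at 2.40 to 2.71 in pregnant and 2.38 to 2.64 in cyclic animals of day 18. On day 15, 2 of 9 were called higher, CLDN4 (1.32) and CDH1 (0.64), against 2.75% of all probe sets. On day 18 the same 2 were called higher (0.78 and 0.51), against 8.84%, and KRT18 lower (-0.38). CDH1 was also called for the IFNA effect over placebo minus the pregnancy effect of day 18 (-0.57 ± 0.132, limma, adjusted p = 0.029). The part of these cell types in the results was not tested.

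The 9 lists of neighbouring steps of lipid metabolism and of the targets of GPLD1 held 138 genes, of which 105 were measured. None was called after IFNA over placebo or over PBS, for placebo over PBS, or on day 12 (limma). On day 15, 5 were higher and 1 lower (5.71%, against 5.07% of all probe sets), and on day 18, 13 were higher and 8 lower (20.0%, against 19.0% of all probe sets), with a median difference of -0.01 on day 18 against -0.03 over all probe sets. The lists as a whole were therefore called about as often as all probe sets on both days.

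On the uptake side, day 18 pregnant animals had more OLR1 (1.97 ± 0.15, limma, adjusted p = 2.52e-09) and MSR1 (1.44 ± 0.196), scavenger receptors for modified lipoproteins that macrophages also carry, and less APOA1 (-0.78), the main protein of high-density lipoprotein. Of 11 measured lipases and cofactors 1 was called, the lysosomal acid lipase LIPA, higher on day 15 (0.70) and on day 18 (0.57). Fatty acid transport and acyl-CoA synthetases, 1 of the 9 lists examined, had 5 of 12 called higher and 0 lower, with a list median of 0.34. For each list count of day 18, the share over all probe sets was 19.0% called, with 8.84% called higher. The 5 included ACSL6 (0.94 ± 0.14), which activates fatty acids, SLC27A5 (0.69) and MFSD2A (0.62), which carries lysophosphatidylcholine. Of the other binding proteins 2 of 7 were lower, FABP7 (-0.76) and the retinoic acid carrier CRABP2 (-0.62), so the rise of FABP3 was not shared by FABP7.

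On day 18, where 19.0% of all probe sets were called, 1 of 15 measured droplet and triacylglycerol genes was higher and 2 were lower. They were AGPAT2 (0.28), GPAM (-0.26) and FITM2 (-0.68), which promotes droplet formation. FITM2 was also lower on day 15 (-0.50), when SOAT1, which makes cholesteryl esters, was higher (1.45 ± 0.269, limma, adjusted p = 0.00203). In oxidation 1 of 14 genes was called on day 18, HADH (-0.40), and in synthesis 2 of 13, the elongases ELOVL6 (0.74) and ELOVL1 (0.27). Of 14 regulators 1 was called, RXRA (-0.33). Among 8 measured genes of anchor attachment and anchored proteins, PLAUR (0.91) and PIGT (0.31) were higher and THY1 (-0.23) was lower.

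**Figure D4:**
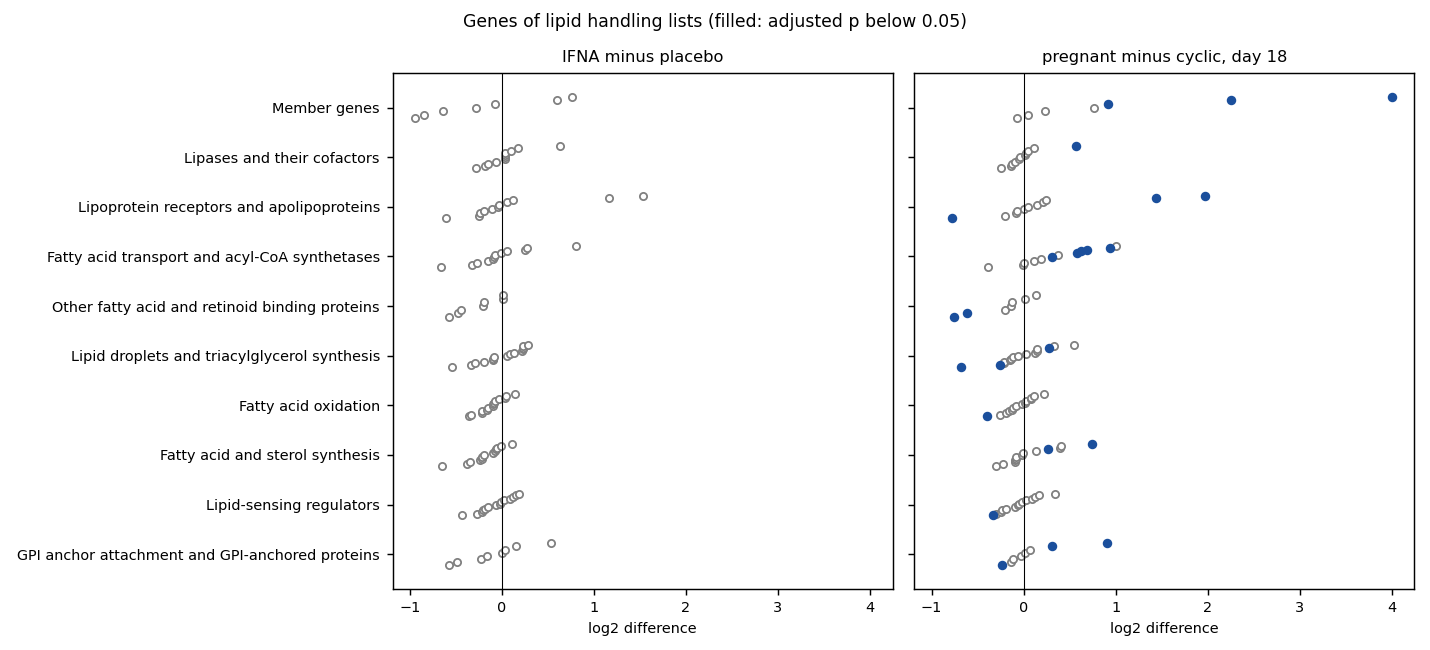
Log2 difference of each measured gene (points, 1 per gene) in 9 lists of lipid handling and in the 7 uptake, carrier and storage genes (top row), for IFNA minus placebo (left) and pregnant minus cyclic on day 18 (right); filled points have an adjusted p below 0.05. No point is filled on the left, and FABP3 (4.00) lies furthest to the right on day 18, beyond GPLD1 (2.25) of the same row and OLR1 (1.97) of the lists.

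For each gene the 3 genes most like it were sought by Pearson correlation of centred levels over the 24 pregnancy arrays, which share their days and array sets. FABP3 was most like PSMB10 (0.964), SHISA5 (0.964) and MCL1 (0.961). GPLD1 was most like S100A12 (0.976), SLC2A1 (0.968) and GNGT2 (0.968), and PLIN2 most like IL18 (0.910), TIMP2 (0.884) and TOMM6 (0.871). LPL was nearest to FAM162A (0.922), GJB5 (0.919) and ITGB4 (0.918), and FABP5 to CRCP (0.912), CMPK1 (0.911) and AP1AR (0.904). CD36 had no close match, the nearest being MLX (0.658), ARIH2 (0.554) and DNAAF2 (0.517). For FABP4, at its low level, TAFA1 (0.911), GABRB1 (0.911) and LIPF (0.903) came closest.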

How the data were processed

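Total RNA was labelled with biotin and hybridised to Affymetrix bovine genome arrays, 1 array for each of 33 heifers. The deposited table holds log2 values per probe set. Per the submitters' processing notes the authors used RMA and the affy package, without versions. The values ran from 1.89 to 14.2. After removal of 112 controls from 24128 probe sets, 24016 were tested. The array annotation named 1 gene for 13292, several for 86 and none for 10638, and 13263 symbols were updated by gene identifier in RefSeq. For the 2913 of 9155 genes with several probe sets, the brightest by its mean over the 33 arrays was used for the gene.

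Differences were tested in R 4.3.3 by limma 3.58.1 (lmFit, then eBayes), with a mean for each group and no covariate, on the 9 biopsy, the 24 pregnancy or, for IFNA against pregnancy, all 33 arrays. Tests were two-sided. The labels call the samples biological replicates, 1 animal each. Comparisons between days used values minus each array's median, after which the median difference of all probe sets was -0.10 to 0.14. On simulated data with 24016 probe sets, 200 of them changed, a change of 1 was recovered for 65% for IFNA over placebo. The share was 97% on day 12, 94% on day 15 and 93% on day 18, and 3.05% to 5.83% of calls were false. The adjusted cutoff depends on how many probe sets change. The 97% therefore does not carry over to day 12, where 1 probe set was called in the data. Precision is limited by how few arrays a group has.

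The 7 genes, the gene lists and the marker lists were chosen with earlier results of these data known. Named are all 7 genes, the 3 most like genes of each, and from each list at most the 3 largest changes past the threshold in a comparison. Alternatives were quantile normalisation, deposited values between days, a filter on the dimmest 25% of probe sets, the mean over a gene's probe sets, the replicate number as a block, array weights, the GAPDH 3' minus 5' difference as a covariate, a fit on the compared groups alone, and leaving out each animal.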

Additional observations from a re-analysis of the deposited data

Results flagged for a closer look

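Of 36 sets of values (9 probe sets in each group of 4 or more animals) examined for a value apart from the rest, 1 was found: FABP3 in pregnant replicate 1 of day 12 was 6.31, against 5.06 to 5.39 in the other 4 pregnant animals. About 1 in 20 sets would show this by chance. Without that animal the day 12 difference of FABP3 was 0.03 and the larger pregnancy effect of day 15 over day 12 was still called (limma, adjusted p = 0.0208). That call was lost when any 1 of 13 of the 16 animals of these days was left out.

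The pregnancy effect differed between days by interaction terms for 3 genes. For FABP3 it was 2.23 larger on day 15 than on day 12 and 3.75 larger on day 18 than on day 12. For GPLD1 it was 2.07 larger on day 18 than on day 12. For LPL the term of 1.67 was the loss of a negative difference. The LPL difference between pregnant and cyclic animals was -1.62 on day 12 and 0.05 on day 18.

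The IFNA effect over placebo differed from the pregnancy effect of day 18 by -4.64 for FABP3 and by -3.08 for GPLD1. The causes of these differences were not tested.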

How the results depend on the processing

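The number of the 7 genes called was recomputed under each alternative. With array weights it was 1 for IFNA over PBS (0 in the reported fit) and 2 for IFNA against the pregnancy effect of day 15 (0). In a fit on the compared groups alone it was 0 for day 12 (1). For the pregnancy effect of day 15 over day 12 it was 0 under quantile normalisation, with the replicate block and with the GAPDH covariate (1). With the GAPDH covariate it was 2 for pregnant day 15 over 12 (5), 2 for pregnant day 18 over 12 (5), 3 for cyclic day 15 over 12 (6) and 1 for IFNA against day 15 (0). That covariate did not overlap between day 12 and the later days, so calls lost between those days do not tell day from RNA integrity. On deposited values it was 1 for cyclic day 18 over 15 (3). With the replicate block it was 1 for IFNA against day 18 (2), where GPLD1 had an adjusted p of 0.065 by limma. Pairing of animals by replicate number was not shown. Same-numbered animals correlated at -0.34 to 0.37 after group means were removed, and no comparison had all its correlations above 0.1. On day 12 they were 0.03 to 0.20 and on day 15 0.02 to 0.15, which does not settle the question. Between days the replicate block was fitted as a random effect. The first FABP4 probe set changed direction on deposited values for pregnant day 18 over 15 (0.09), pregnant day 18 over 12 (0.24), cyclic day 18 over 15 (0.27, and 0.05 under quantile normalisation) and cyclic day 18 over 12 (0.36), while the second was lower on day 18 on both scales. With 1 animal left out the counts ran from 0 to 1 for day 12, 1 to 2 for day 15, 0 to 2 for the pregnancy effect of day 15 over day 12, 3 to 6 for pregnant day 18 over 15, 0 to 2 for IFNA against day 15 and 1 to 2 for IFNA against day 18. FABP4 is left out by the filter on dim probe sets and gives no value there. Between days, the gap between centred and deposited differences is by construction the difference in array median. Those medians were 6.86, 6.50 and 7.25 on average on days 12, 15 and 18. Except where stated, the cause of the other shifts was not tested. With 3 animals per biopsy group, a change of 1 was recovered for 65% of simulated probe sets, a share over all probe sets. The standard errors over placebo were 0.768 for LPL, 0.699 for CD36, 0.64 for FABP3 and 0.618 for GPLD1. In these genes changes of 1 or more after IFNA could therefore go undetected, as could smaller changes in the other genes.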
